A study of Homo sapiens with 14 samples.

Results

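The 7 human genes described here encode the enzymes of the phosphofructokinase step of glycolysis and the enzymes that set its activator. PFKL, PFKM and PFKP encode the liver, muscle and platelet subunits of 6-phosphofructo-1-kinase, and PFKFB1, PFKFB2, PFKFB3 and PFKFB4 encode the bifunctional 6-phosphofructo-2-kinase/fructose-2,6-bisphosphatases. The members are the rows with these 7 gene symbols, and no measured value entered the rule. The set itself was chosen with earlier results of these data known. All 7 were found among the 23106 symbols counted in each library, and all 7 passed the filter on low counts in every comparison.

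RNA was measured by sequencing of polyadenylated RNA in PC3 cells, a line from a human prostate carcinoma, and HCT116 cells, a line from a human colorectal carcinoma. Either line was exposed to normoxia (21% O2) or to hypoxia (0.5% O2) over 16 h, and each condition is represented by 4 libraries of PC3 and 3 of HCT116. No genotype change or drug distinguished the groups, and each line stands for a single tumour. The study's methods give a different culture medium for each line. In every comparison between the lines, line, medium and order of the libraries cannot be told apart. The study's methods call the replicates biological, and p-values measure the spread between them.

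Total counts lay between 98021966 and 123935458 in normoxic PC3, between 71228454 and 96159803 in hypoxic PC3, between 136931675 and 147934177 in normoxic HCT116 and between 133067391 and 150630928 in hypoxic HCT116. Levels are given as CPM, counts scaled to a common library size with TMM factors over all 14 libraries, and levels of different genes are compared only as CPM per kb of exon. The epithelial genes EPCAM, KRT8 and KRT18 held at least 29524 counts in every library. CDH1, also an epithelial gene, held 28712 to 43230 counts in PC3 and 3589 to 7652 in HCT116. HOXB13, a prostate homeobox gene, held 5653 to 11214 counts in PC3, where the prostate genes KLK3 and FOLH1 were at 2 counts or fewer. CDX2, an intestinal homeobox gene, held 2164 to 2845 counts in HCT116 and 0 in PC3, whereas the intestinal genes CDX1, CDH17, VIL1 and LGALS4 were at 8 counts or fewer in HCT116. The leukocyte gene PTPRC held 12 to 94 counts in PC3 and 0 in HCT116. Of the muscle genes, MYH1 and CKM held 4 counts or fewer in all libraries and ACTA1 held 28 or fewer. Of the fibroblast genes, COL1A1 held 401 to 1663 counts and COL1A2 9 or fewer. As a check of the treatment, 6 of 9 genes of a hypoxia list rose in PC3 and 7 of 9 in HCT116. Of all genes tested, 6.03% and 14.6% rose. The list was led by NDRG1 (log2 fold change 2.87) and EGLN3 (1.88) in PC3 and by CA9 (6.03) and BNIP3 (3.22) in HCT116. HIF1A RNA, which encodes a subunit of the hypoxia-inducible factor, fell by 0.53 in PC3 and by 0.63 in HCT116 on the log2 scale.

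Phosphofructokinase converts fructose 6-phosphate to fructose 1,6-bisphosphate, a committed step of glycolysis, and works as a tetramer of its subunits. Fructose 2,6-bisphosphate is its strongest activator. The PFKFB enzymes carry a kinase that makes fructose 2,6-bisphosphate and a phosphatase that removes it, in one polypeptide, and the balance between both activities differs among the 4 isoenzymes. PFKFB3 has the kinase in strong excess. PFKFB3 and PFKFB4 are known targets of the hypoxia-inducible factors, which bind DNA at a short core, ACGTG or GCGTG.

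Because the results turn on PFKFB3 and PFKFB4, a promoter window of each is shown. Each runs from 250 bases before to 50 bases after a transcript start, taken from RefSeq (GRCh38.p14, not the GRCh37 build of the counts), 5′ to 3′ on the strand of the gene. Capitals mark every ACGTG or GCGTG on either strand, so that a match on the opposite strand reads CACGT or CACGC, and overlapping matches run together. The PFKFB3 window lies at chr10:6202682-6202981 on the plus strand, at the second of its start sites, and the PFKFB4 window lies at chr3:48556754-48557053 on the minus strand.
PFKFB3: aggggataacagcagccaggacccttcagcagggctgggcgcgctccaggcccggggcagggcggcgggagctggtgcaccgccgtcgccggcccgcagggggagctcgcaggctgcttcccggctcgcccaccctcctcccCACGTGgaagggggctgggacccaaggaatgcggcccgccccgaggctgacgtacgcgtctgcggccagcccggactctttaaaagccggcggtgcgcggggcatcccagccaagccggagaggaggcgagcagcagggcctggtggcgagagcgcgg
PFKFB4: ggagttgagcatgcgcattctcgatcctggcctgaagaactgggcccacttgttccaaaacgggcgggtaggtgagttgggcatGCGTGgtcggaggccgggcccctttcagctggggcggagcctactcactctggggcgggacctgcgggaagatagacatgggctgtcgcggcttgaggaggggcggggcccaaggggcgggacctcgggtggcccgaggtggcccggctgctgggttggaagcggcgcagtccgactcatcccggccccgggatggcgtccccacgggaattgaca
The PFKFB3 window shown held ACGTG on both strands at overlapping positions, 108 and 107 bases before the start. The window at the first PFKFB3 start, which is not shown, held no ACGTG and a single GCGTG, on the opposite strand 168 bases before that start. The PFKFB4 window held a single GCGTG 166 bases before its start. Windows were found for 6 of the 7 genes, PFKFB2 being the other, and 8 of their 17 windows held at least 1 of these letter strings. Among all 35116 windows of the RefSeq table, 21.4% held ACGTG, 36.5% held GCGTG and 48.4% held either. A match is a description of the letters and not of a bound site.

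Hypoxia was compared with normoxia within each line to ask which of the 7 genes responded. In PC3, PFKL, PFKP, PFKFB3 and PFKFB4 rose and none of the 7 was called lower by edgeR (2 at an unadjusted p under 0.05, and 1 by DESeq2), against a background of 11.3% of the 14309 genes tested (6.03% higher and 5.29% lower). In HCT116, PFKL, PFKP, PFKFB3 and PFKFB4 also rose, and 0 were called lower at an adjusted or unadjusted p or by DESeq2, against 25.9% of 14120 genes (14.6% higher and 11.3% lower). PFKM, PFKFB1 and PFKFB2 were not called in either line in these fits, which do not use the pairing of the PC3 libraries. With the replicate number as a block, PFKM was called lower in PC3 (-0.28, adjusted p = 0.00458), the other 6 members kept their calls, and the count over all genes in PC3 was 4074 instead of 1620. In bulk RNA, fewer cells that carry a transcript and less of it per cell cannot be told apart. Calls are those of edgeR's quasi-likelihood test with a Benjamini-Hochberg adjusted p under 0.05. The directions held under median-of-ratios and total-count scaling, except that PFKFB2 in HCT116, which was not called, changed sign under total-count scaling, which moved the median of all genes in PC3 from 0.00 to -0.10 on the log2 scale. Over all genes the split was 863 higher to 757 lower in PC3 and 2061 to 1597 in HCT116, and under total-count scaling it was 562 to 1733 and 1286 to 3146.

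**Figure D1:**
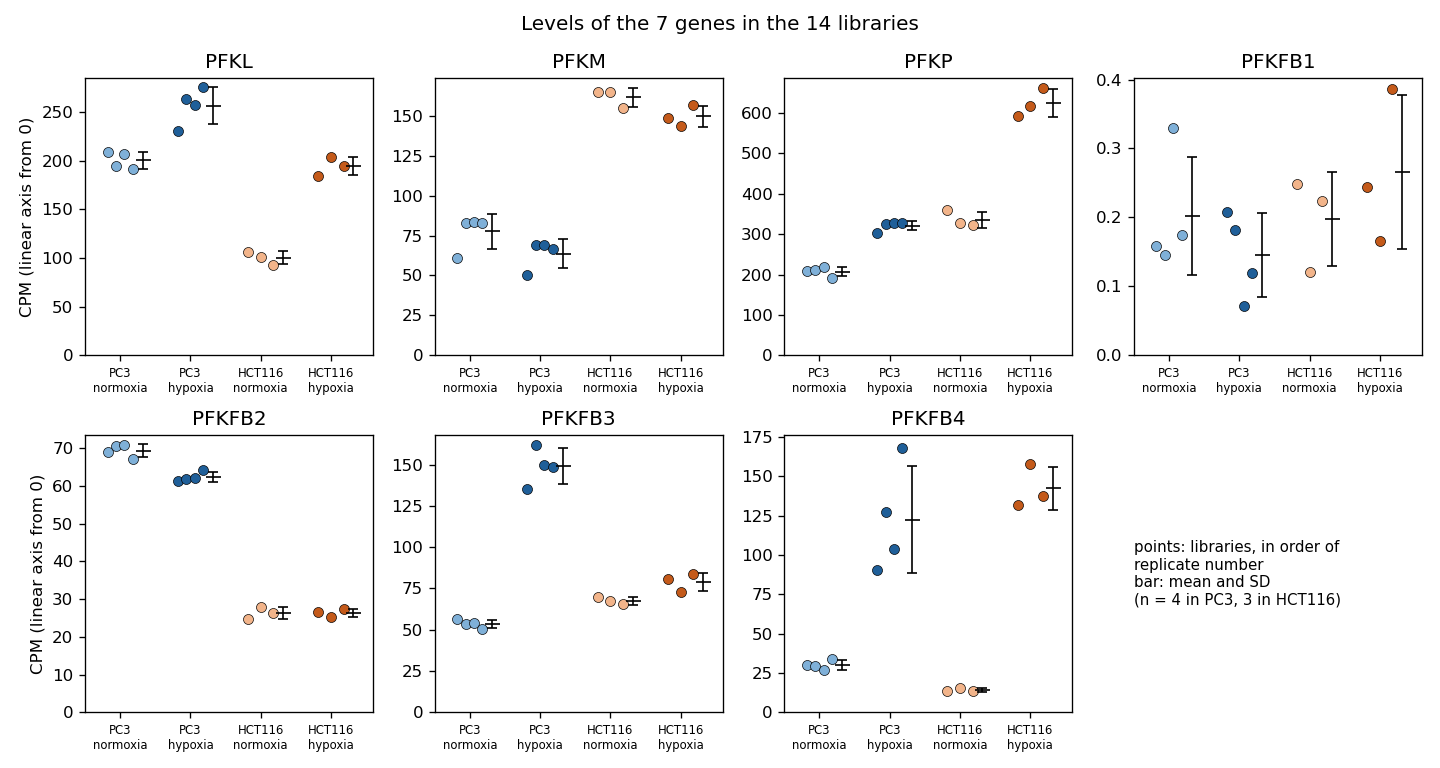
CPM of each gene (linear vertical axis from 0) in the 4 groups on the horizontal axis, with a point per library and the mean with its SD beside the points (n = 4 in PC3, n = 3 in HCT116). The hypoxic libraries lie above the normoxic libraries of the same line for PFKL, PFKP, PFKFB3 and PFKFB4, the step of PFKFB3 being from 53.6 to 149 CPM in PC3 and from 67.5 to 79.1 CPM in HCT116.

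PFKL (chr21:45719934-45747259, plus strand, GRCh37) encodes the liver subunit. Its levels were 208, 195, 207 and 192 CPM in normoxic PC3 and 231, 263, 257 and 275 CPM in hypoxic PC3. In HCT116 they were 107, 101 and 93.0 CPM in normoxia and 185, 204 and 195 CPM in hypoxia. The hypoxic libraries lay above the normoxic ones in both lines without overlap, as groups did in either direction for 20.9% of genes in PC3 and 42.5% in HCT116, while hypoxic HCT116 reached only the range of normoxic PC3. The log2 fold change of PFKL was 0.36 in PC3 (SE 0.07, adjusted p = 0.0140) and 0.97 in HCT116 (SE 0.07, adjusted p = 2.83e-06). Without normoxic PC3 replicate 2 the adjusted p in PC3 was 0.0628, without normoxic replicate 3 it was 0.0506 and without hypoxic replicate 2 it was 0.0509, with a log2 fold change of 0.34, 0.37 and 0.35.

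PFKM (chr12:48498922-48540187, plus strand) encodes the muscle subunit. Its levels were 61.0, 83.0, 83.7 and 82.9 CPM in normoxic PC3 and 50.02, 68.9, 69.3 and 66.3 CPM in hypoxic PC3. In both conditions replicate 1 was the low library, so that the groups overlap although every same-numbered pair of libraries was lower in hypoxia. The differences within the 4 pairs were -0.29, -0.27, -0.27 and -0.32 on the log2 CPM scale. The log2 fold change of PFKM in PC3 was -0.28 (SE 0.12, adjusted p = 0.177), and the paired fit gave the same size with the smaller adjusted p given above. In HCT116 the levels of PFKM were 165, 165 and 155 CPM in normoxia and 148, 144 and 157 CPM in hypoxia, and these ranges overlap. The log2 fold change there was -0.09 (SE 0.06, adjusted p = 0.286).

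PFKP (chr10:3108525-3179910, plus strand) encodes the platelet subunit and had the highest level per kb of the 7 genes in all 4 groups. Its levels were 209, 212, 218 and 191 CPM in normoxic PC3 and 304, 326, 327 and 329 CPM in hypoxic PC3. HCT116 held 359, 327 and 322 CPM in normoxia and 593, 618 and 662 CPM in hypoxia. Normoxic HCT116 thus covered about the range that PC3 reached in hypoxia, and the 2 groups overlap. PFKP rose by a log2 fold change of 0.64 in PC3 (SE 0.07, adjusted p = 7.39e-04) and of 0.91 in HCT116 (SE 0.07, adjusted p = 4.32e-06).

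Among the bifunctional enzymes, PFKFB1 (chrX:54959394-55024967, minus strand), the liver and muscle isoenzyme, was at the edge of detection. It held between 7 and 49 counts in a library, which is above the floor of 3 counts, and its group means lay between 0.145 ± 0.0611 CPM (SD, n = 4, hypoxic PC3) and 0.265 ± 0.112 CPM (SD, n = 3, hypoxic HCT116). All 4 groups overlapped. The log2 fold change was -0.46 in PC3 (SE 0.42, adjusted p = 0.518) and 0.43 in HCT116 (SE 0.41, adjusted p = 0.473), so that any difference lay within the error at these counts.

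PFKFB2 (chr1:207207711-207254369, plus strand) encodes the isoenzyme known from heart, whose kinase is activated by phosphorylation. Its levels were 68.9, 70.4, 70.9 and 67.1 CPM in normoxic PC3 and 61.4, 61.9, 62.0 and 64.2 CPM in hypoxic PC3. Although these groups did not overlap, the log2 fold change of -0.15 (SE 0.05) had an adjusted p of 0.112. It passed the threshold under total-count scaling (-0.25, adjusted p = 0.0146) and with DESeq2 (-0.14, adjusted p = 0.0451). HCT116 held 24.8, 27.9 and 26.4 CPM in normoxia and 26.6, 25.2 and 27.3 CPM in hypoxia, ranges that overlap, with a log2 fold change of 0.02 (SE 0.07, adjusted p = 0.885).

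PFKFB3 (chr10:6186897-6296607, plus strand), the isoenzyme with the kinase in excess, was the member whose response depended most clearly on the line. PC3 held 56.3, 53.7, 54.0 and 50.5 CPM in normoxia and 135, 162, 149.8 and 149 CPM in hypoxia. In HCT116 the levels were 70.1, 67.2 and 65.4 CPM in normoxia and 80.6, 73.1 and 83.7 CPM in hypoxia. The groups of each line did not overlap, and the order of the lines turned over: every normoxic PC3 library lay below every HCT116 library, and every hypoxic PC3 library above every HCT116 library. The rise was 2.79-fold in PC3 (adjusted p = 2.08e-05) and 1.18-fold in HCT116 (log2 fold change 0.24, SE 0.07, adjusted p = 0.0215). The call in HCT116 was lost without hypoxic replicate 1 (adjusted p = 0.0634), hypoxic replicate 3 (0.0736), normoxic replicate 2 (0.0894) or normoxic replicate 3 (0.0584), with total-count scaling (log2 fold change 0.15, adjusted p = 0.152) and in one fit over both lines (0.23, adjusted p = 0.0714).

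PFKFB4 (chr3:48555117-48599448, minus strand), first known from testis, had the largest fold change of the 7 genes in each line. Normoxic PC3 held 30.3, 29.4, 26.9 and 34.2 CPM and hypoxic PC3 90.3, 127, 104 and 168 CPM. HCT116 held 13.6, 15.6 and 13.4 CPM in normoxia and 132, 158 and 137 CPM in hypoxia. The hypoxic ranges of both lines overlap, but only through hypoxic PC3 replicate 4 (168 CPM). Every other hypoxic PC3 library lay below every hypoxic HCT116 library. Without replicate 4 the difference between the lines in hypoxia was -0.43 on the log2 scale (edgeR, adjusted p = 0.00294). An equal level of the lines in hypoxia is therefore not shown. The rise was 4.06-fold in PC3 (adjusted p = 2.75e-04) and 10.1-fold in HCT116 (log2 fold change 3.34, SE 0.09, adjusted p = 3.30e-09), at percentiles 99.8 and 99.9 of the fold changes of all genes tested in the respective line.

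**Figure D2:**
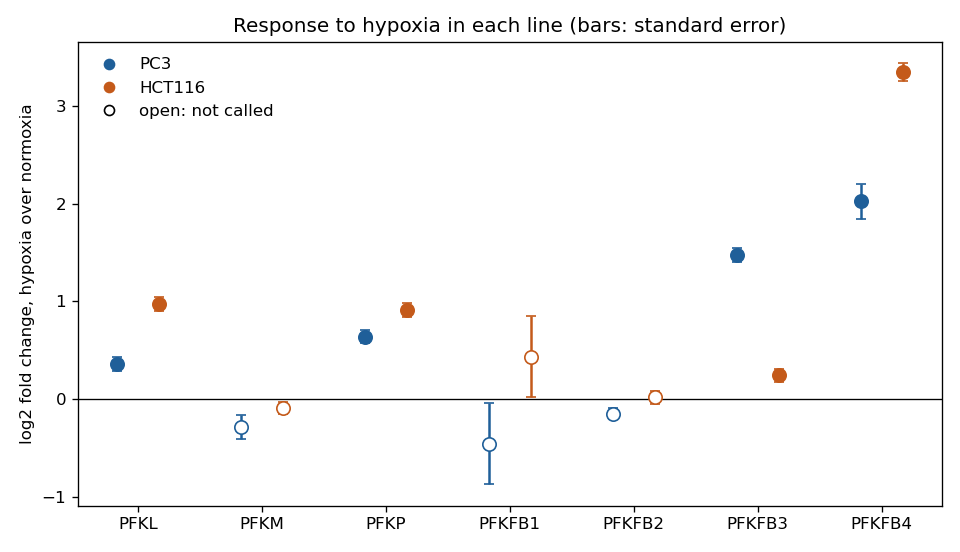
Log2 fold change of hypoxia over normoxia (vertical axis) for each gene (horizontal axis) in PC3 and HCT116, with bars of 1 standard error. Open symbols mark genes that were not called in the fits without pairing. PFKFB3 stands higher in PC3 (1.48) than in HCT116 (0.24), and PFKFB4 and PFKL stand higher in HCT116 (3.34 and 0.97) than in PC3 (2.02 and 0.36).

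The libraries of PC3 also differed in the size of the response within pairs of the same replicate number. Pair 1 had the smallest difference for the 4 genes that rose, at 0.15 for PFKL, 0.54 for PFKP, 1.27 for PFKFB3 and 1.58 for PFKFB4 on the log2 CPM scale. Pair 4 had the largest for PFKL (0.52), PFKP (0.78) and PFKFB4 (2.30), and pair 2 the largest for PFKFB3 (1.59). PFKM, by contrast, moved within a span of -0.27 to -0.32 over the 4 pairs, and PFKFB2 within -0.07 to -0.19. PFKFB1 had differences from -2.19 to 0.38, each resting on 34 counts or fewer per library.

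**Figure D3:**
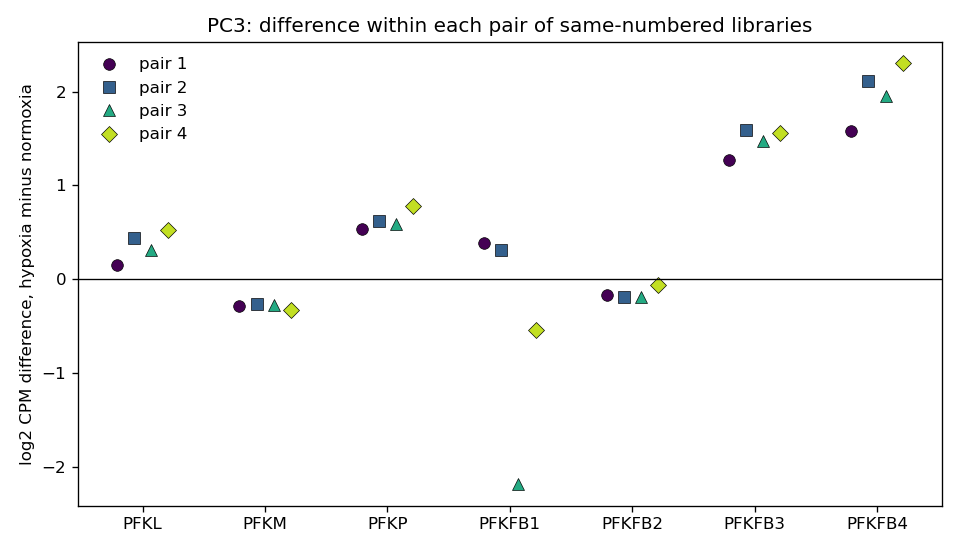
Difference of log2 CPM, hypoxia minus normoxia (vertical axis), within each of the 4 pairs of same-numbered PC3 libraries, for each gene on the horizontal axis and with a symbol per pair. The 4 pairs lie close together for PFKM, at -0.27 to -0.32, and spread from 1.58 to 2.30 for PFKFB4.

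The difference of the response between the lines was tested directly as the interaction of line and oxygen over all 14 libraries. PFKFB3 rose more in PC3, by 1.25 on the log2 scale (SE 0.10, adjusted p = 1.09e-05). PFKL and PFKFB4 rose less in PC3 than in HCT116, with differences of -0.60 (SE 0.11, adjusted p = 0.00790) and -1.31 (SE 0.23, adjusted p = 0.00777). Over all 15493 genes tested, 1.01% were called higher and 1.31% lower in this comparison, 359 genes or 2.32% in all, or 1307 with the PC3 and HCT116 replicate numbers as blocks within each line. For PFKP the difference was -0.26 (SE 0.10, adjusted p = 0.199), for PFKM -0.18 (SE 0.17, adjusted p = 0.682), for PFKFB2 -0.15 (SE 0.08, adjusted p = 0.405) and for PFKFB1 -0.88 (SE 0.62, adjusted p = 0.543), none of them called. The 3 calls held in each alternative and with each library left out, while the count over all genes ranged from 177 to 717 as single libraries were left out.

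Comparing PC3 with HCT116 within a condition gives the isoform use of each line in its own medium. In normoxia PFKL, PFKFB2 and PFKFB4 were higher in PC3, with log2 differences of 1.00 (SE 0.08), 1.39 (SE 0.06) and 1.09 (SE 0.17), and PFKM, PFKP and PFKFB3 were lower, with -1.06 (SE 0.12), -0.70 (SE 0.07) and -0.33 (SE 0.07). The least significant of these 6, PFKFB3, had an adjusted p of 5.56e-04. The lines are far apart in general, with 81.3% of all genes called between them in normoxia (42.4% higher and 38.9% lower in PC3) and 80.8% in hypoxia (41.8% and 39%), so that 6 of 7 members called is not a result about these genes. The libraries of the lines did not overlap for 82.4% of genes in normoxia and 77.2% in hypoxia, and for 6 and 5 of the 7 members. In hypoxia PFKL (0.40, SE 0.07) and PFKFB2 (1.24, SE 0.06) remained higher in PC3, PFKM (-1.23, SE 0.12) and PFKP (-0.96, SE 0.07) remained lower, and PFKFB3 was now higher in PC3 (0.91, SE 0.07, adjusted p = 1.47e-08). PFKFB4 no longer differed beyond the spread in hypoxia, at -0.22 (SE 0.16, adjusted p = 0.220). Without hypoxic PC3 replicate 4, the library with 168 CPM, that value was -0.43 with an adjusted p of 0.00294. PFKFB1 was not called in either condition, with an adjusted p of 0.967 in normoxia and 0.0843 in hypoxia, although without hypoxic PC3 replicate 1 or hypoxic HCT116 replicate 2 the adjusted p in hypoxia was 0.04997 or 0.0407. The comparisons within a condition and those between conditions share libraries.

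Per kb of exon, the order of the 7 genes differed between the lines and moved with hypoxia. In normoxic PC3 the means were 26.7 ± 1.47 CPM per kb for PFKP and 22.5 ± 0.956 for PFKL (SD, n = 4), followed by PFKM (10.7), PFKFB3 (8.77), PFKFB2 (6.81), PFKFB4 (4.94) and PFKFB1 (0.0932), and of these neighbours only PFKM and PFKFB3 overlapped. In hypoxic PC3, PFKP (41.3) stood above PFKL (28.7), PFKFB3 (24.4) and PFKFB4 (20.04), of which each overlapped the next, and then came PFKM (8.78), PFKFB2 (6.13) and PFKFB1 (0.0670). In normoxic HCT116 PFKP (43.2 ± 2.56, SD, n = 3) was followed by PFKM (22.3), then by PFKL (11.2) and PFKFB3 (11.05), which overlapped, then by PFKFB2 (2.59) and PFKFB4 (2.32), which overlapped, and PFKFB1 (0.0911). Hypoxic HCT116 had PFKP at 80.3 ± 4.52, then PFKFB4 (23.3), PFKL (21.8) and PFKM (20.6) overlapping one another in turn, and then PFKFB3 (12.9), PFKFB2 (2.59) and PFKFB1 (0.122). These orders rest on the merged exons of each gene, 8.93 kb for PFKL, 7.25 kb for PFKM and 6.11 kb for PFKFB4. Their longest transcripts have 6.01, 3.58 and 3.50 kb and their canonical ones 2.91, 3.09 and 3.50 kb. Close positions such as those of PFKL, PFKM and PFKFB4 can therefore change with the length used.

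Expressed as shares of the summed CPM per kb of the 3 subunit genes, PFKP rose from 42.8-45.9% of the sum in normoxic PC3 libraries to 51.4-54.4% in hypoxic ones, and from 55.3-57.1% to 65.0-66.2% in HCT116. PFKL was the second subunit in PC3, with a mean of 37.5% in normoxia and 36.4% in hypoxia, and PFKM the second in normoxic HCT116, with 29.1%. In hypoxic HCT116 PFKL (17.8%) and PFKM (16.8%) had nearly equal shares with merged exons as the length, and the PFKM share in hypoxic PC3 was 11.1%. With no length, PFKL stood above PFKM in hypoxic HCT116 (means of 194 and 149 CPM), so that this near equality depends on the length used. The sum itself went from 59.9 ± 2.30 to 78.8 ± 4.76 CPM per kb in PC3 (SD, n = 4) and from 76.7 ± 3.88 to 122.7 ± 5.64 in HCT116 (SD, n = 3).

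Of the summed PFKFB level, PFKFB3 held 42.5 ± 1.60% in normoxic and 48.5 ± 4.58% in hypoxic PC3 (SD, n = 4), whereas in HCT116 it held 68.8 ± 1.68% in normoxia and 33.3 ± 3.16% in hypoxia (SD, n = 3). PFKFB4 went from 24.0 ± 2.35% to 39.1 ± 5.80% in PC3 and from 14.5 ± 1.01% to 59.7 ± 3.73% in HCT116. PFKFB2 held a mean of 33.0% in normoxic PC3, 12.3% in hypoxic PC3, 16.2% in normoxic HCT116 and 6.67% in hypoxic HCT116. On this scale PFKFB3 was the leading PFKFB gene in normoxia in both lines and PFKFB4 in hypoxic HCT116. In hypoxic PC3 the ranges of both overlapped, the lowest PFKFB3 share being 41.8% and the highest PFKFB4 share 47.3%. The sum over the 4 genes went from 20.6 ± 0.265 to 50.6 ± 6.63 CPM per kb in PC3 and from 16.1 ± 0.402 to 38.9 ± 1.42 in HCT116. Shares are described without a test. They depend on the length used for each gene, 6.11 kb of merged exons for both PFKFB3 and PFKFB4 and 10.2 kb for PFKFB2: with no length PFKFB2 (69.3 CPM) stood above PFKFB3 (53.6 CPM) in normoxic PC3, and with the longest transcript PFKFB4 (44.9%) stood above PFKFB3 (43.3%) in hypoxic PC3.

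**Figure D4:**
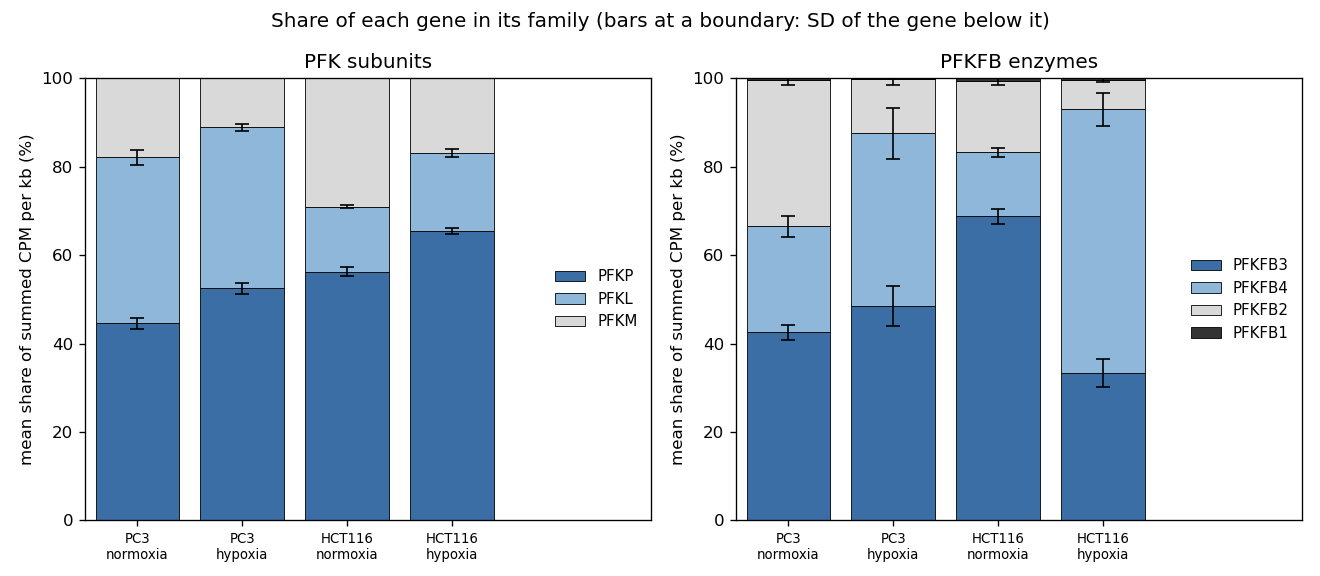
Mean share of each gene in the summed CPM per kb (vertical axis, %) of the 3 subunit genes (left) and of the 4 PFKFB genes (right) in the 4 groups, with bars for the SD of the gene below the boundary (n = 4 in PC3, n = 3 in HCT116). PFKP holds 44.6% to 65.4% of the subunit sum, and PFKFB4 goes from 14.5% to 59.7% of the PFKFB sum in HCT116.

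The neighbours of the phosphofructokinase step in the pathway were followed with a list of 7 genes. GPI, which makes fructose 6-phosphate, and the aldolases ALDOA and ALDOC, which split fructose 1,6-bisphosphate, rose in both lines, and edgeR called no gene of the list lower. At an unadjusted p under 0.05 the count of lower genes was 0 in PC3 and 1 in HCT116, and DESeq2 called 0 and 1. The rises were 3 of 6 tested genes in PC3 and 3 of 5 in HCT116, where 6.03% and 14.6% of all genes rose. The median log2 fold change of the list was 0.38 and 1.38 against 0.00 for all genes in both lines. GPI rose by 0.68 (SE 0.14) in PC3 and 1.63 (SE 0.07) in HCT116, ALDOA by 0.76 (SE 0.11) and 1.38 (SE 0.07), and ALDOC by 1.03 (SE 0.20) and 3.79 (SE 0.18). The response was smaller in PC3 for GPI (-0.94, SE 0.19, adjusted p = 0.0182) and ALDOC (-2.74, SE 0.30, adjusted p = 1.30e-04). TIGAR, a phosphatase that acts on fructose 2,6-bisphosphate, had 0.09 (SE 0.07, adjusted p = 0.458) in PC3 and -0.23 (SE 0.08, adjusted p = 0.0627) in HCT116. FBP2, the muscle fructose-1,6-bisphosphatase, held 7 to 40 counts and was not called in either line.

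FBP1, the liver fructose-1,6-bisphosphatase, which opposes the phosphofructokinase step by a separate reaction, separated the lines. It held 3357 to 4407 counts in normoxic PC3 and 2640 to 2942 in hypoxic PC3, against 3 to 13 counts in normoxic HCT116 and 9 to 12 in hypoxic HCT116. In PC3 the levels were 32.7, 32.7, 32.5 and 36.5 CPM in normoxia and 32.2, 34.2, 30.1 and 41.3 CPM in hypoxia, and its log2 fold change was 0.04 (SE 0.10, adjusted p = 0.831). FBP1 was not tested in HCT116 because its counts were below the filter there. The summed phosphofructokinase level was 3.01 to 3.68 times the FBP1 level in normoxic PC3 libraries and 3.80 to 5.11 times in hypoxic ones, both per kb. These ratios rest on merged exons, 7.774 kb for PFKP, whose longest transcript has 3.265 kb. Their size depends on the length used, and other lengths were not tried for them.

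Of the 22 other glycolysis genes, 11 of 19 tested rose and 0 fell in PC3, with edgeR's adjusted and unadjusted p and with DESeq2, with a median log2 fold change of 0.52. In HCT116, 11 of 18 tested rose and 1 fell (3 with DESeq2), with a median of 0.92. Over all genes tested, edgeR called 6.03% higher and 5.29% lower in PC3, and 14.6% and 11.3% in HCT116. The largest rises were those of ENO2 (1.19, SE 0.16) and PGK1 (1.03, SE 0.12) in PC3 and of ENO2 (2.18, SE 0.08) and HK2 (1.98, SE 0.07) in HCT116, where BPGM, which makes 2,3-bisphosphoglycerate, fell by 0.50 (SE 0.08). ENO2 encodes an enolase, PGK1 phosphoglycerate kinase and HK2 a hexokinase. The response differed between the lines for 3 of the 19 genes, against 2.32% of all genes. All 3 were smaller in PC3, among them HK2 (-0.97, SE 0.12) and ENO2 (-0.98, SE 0.20). In the main fit no gene of either list was called with a larger response in PC3, where PFKFB3 was. In that direction 1 gene of each list had an unadjusted p under 0.05. DESeq2 called 1 of the other glycolysis genes, and the replicate block called 1 gene of each list.

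**Figure D5:**
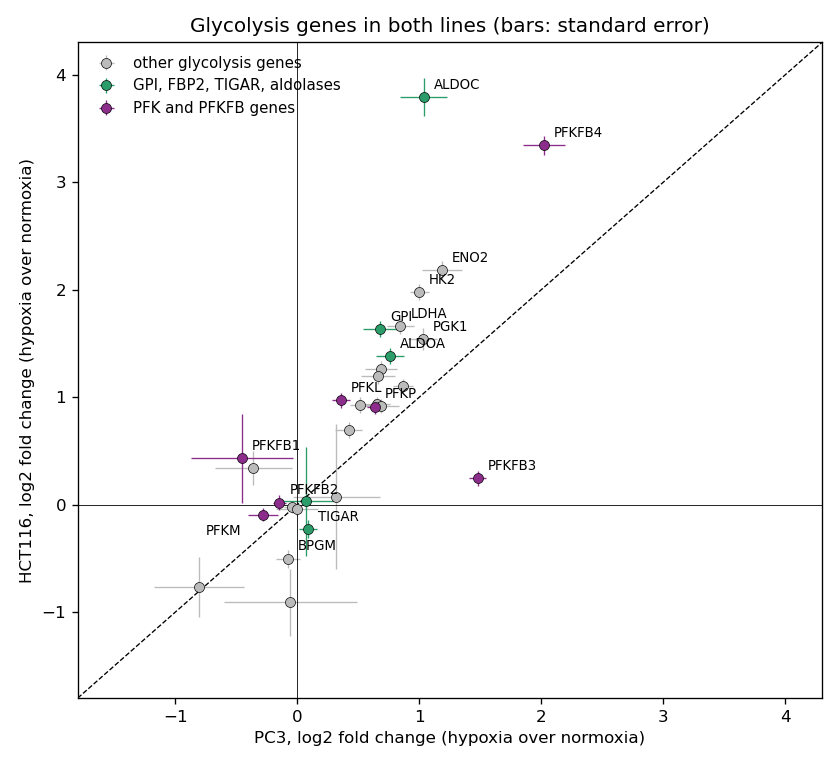
Log2 fold change of hypoxia over normoxia in HCT116 (vertical axis) against PC3 (horizontal axis), with bars of 1 standard error, for the phosphofructokinase and PFKFB genes, the neighbours of the step and the other glycolysis genes tested in both lines. The dashed line marks equal responses. Below it stands PFKFB3 (1.48 in PC3, 0.24 in HCT116), and above it stand PFKFB4 (2.02 and 3.34) and ALDOC (1.03 and 3.79).

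A list of 10 genes whose products phosphorylate or degrade these enzymes had 0 calls in PC3 and 4 in HCT116, where 11.3% and 25.9% of all genes were called. In PC3, 3 of the 10 had an unadjusted p under 0.05, all higher in hypoxia, DESeq2 called 1 and the paired fit 3, with a median log2 fold change of 0.13. In HCT116 the AMP-activated kinase subunit gene PRKAA2 (0.58, SE 0.14) and the ubiquitin ligase gene TRIM21 (0.36, SE 0.09) rose, and PRKACB (-0.44, SE 0.07), which encodes a catalytic subunit of protein kinase A, and PRKAA1 (-0.37, SE 0.06) fell, with a median of 0.04. Of the 10, PRKACB was called for a difference between the lines (0.37, SE 0.09, adjusted p = 0.0432).

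Exons of other genes overlap those of 4 members in the GENCODE annotation. The counts were made in a mode that leaves out reads not covered by a single gene, and whether strand was used is not given in the sources used here. SENP1, on the opposite strand, shares 516 exonic bases with PFKM and had a log2 fold change of -0.05 (SE 0.06) in PC3 and -0.34 (SE 0.08, adjusted p = 0.00930) in HCT116. YOD1, also opposite, shares 315 bases with PFKFB2 and had -0.32 (SE 0.08, adjusted p = 0.0312) in PC3 and -0.04 (SE 0.06) in HCT116. UCN2, on the same strand as PFKFB4, shares 298 bases with it and held 12 to 36 counts in normoxic PC3, 50 to 121 in hypoxic PC3, 27 to 44 in normoxic HCT116 and 54 to 112 in hypoxic HCT116, which is far below the 1798 to 21913 counts of PFKFB4. UCN2 rose in both lines, by 2.27 (SE 0.43) and 1.26 (SE 0.34). PFKP shares 120 exonic bases with ENSG00000278419, a long noncoding RNA gene on the same strand that is not among the counted symbols. The part of these overlaps in the members' values was not tested.

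The other counted genes within 10 kb of a member did not share exonic bases with it. PITRM1, which lies 10 bases from PFKP on the opposite strand, had 0.06 (SE 0.10) in PC3 and 0.02 (SE 0.06) in HCT116. C1orf116, 1610 bases from PFKFB2, rose in HCT116 (1.20, SE 0.15, adjusted p = 3.16e-04) and had 0.16 (SE 0.13) in PC3. ASB8 beside PFKM, APEX2 beside PFKFB1 and COL7A1 beside PFKFB4 were not called in either line. AIRE, SNORA11, TRO, C4BPB and MIR3155A held 14 counts or fewer in every library and were not tested.

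Likeness of pattern was measured as the root mean square difference between the profiles of 2 genes over the 14 libraries, each centred on the log2(CPM + 0.5) scale, among the 12638 genes that reached 1 CPM on average. PFKP was closest to CSRP2 (0.134), WSB1 (0.135) and TPI1 (0.139), the last an enzyme of glycolysis. PFKFB4, whose own profile had a root mean square of 1.34, was closest to RIMKLA (0.284), BHLHE40 (0.428) and MIR210HG (0.432). For PFKFB3 they were SYDE1 (0.147), RASSF2 (0.270) and ARTN (0.280), for PFKL BSPRY (0.116), C2orf81 (0.133) and PERP (0.155), for PFKM PFAS (0.0805), ANP32B (0.0879) and COX10 (0.0881), and for PFKFB2 IL4R (0.0730), POMT2 (0.0786) and GANC (0.0811). PFKFB1 was left out for its low level. The likeness is a description over libraries that share 2 lines and 2 conditions.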

How the data were processed

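Per the labels and the study's methods, the authors sequenced polyadenylated RNA, aligned it with HISAT2 to ERCC sequences and then to GRCh37, and deposited, per library, the HTSeq read count of each RefSeq gene in intersection-strict mode, without normalisation. In its own comparisons the study scaled each library by its ERCC spike-in reads. That scaling was not used here.

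Counts were analysed with edgeR (version 4.0.16, R 4.3.3): filterByExpr, TMM scaling, and the quasi-likelihood test with Benjamini-Hochberg adjustment at 0.05. Each line was fitted alone for hypoxia against normoxia, and all 14 libraries together for the interaction and the differences between lines. The SE was taken as the unshrunk log2 fold change over the root of the test's F. CPM per kb used the merged exons of each gene in GENCODE (GRCh37). The floor of 3 counts covers counting error only. Fits were tested on simulated data with 200 genes changed by a fold of 2.

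The members and lists were chosen with earlier results of these data known. Named are all members, every tested neighbour of the step, the 2 largest called rises and falls of other lists per line, genes within 10 kb of a member, and the 3 genes most alike. PC3 libraries of the same number were described as pairs, since deviations from the group means correlated at 0.595, 0.205, 0.115 and 0.238 for replicates 1 to 4. Libraries of different numbers were not correlated for comparison. The main fits did not use the pairing, which entered only the replicate block. In HCT116 the values were 0.0736, 0.0882 and 0.0595, and the numbers were not taken as pairs outside that block. Alternatives were median-of-ratios and total-count scaling, DESeq2 (version 1.42.0), other filters, one fit over both lines, one condition alone, the replicate block, single libraries left out and other gene lengths for the shares. The canonical transcript length was added after the values had been seen.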

Additional observations from a re-analysis of the deposited data

Results flagged for a closer look

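In PC3, 20 sets of 4 libraries were examined, the level of each of the 7 genes and the share of PFKP, PFKFB3 and PFKFB4 in each condition. In 4 of them a single library lay far from the other 3, where chance gives about 1 in 20 for independent sets. The sets share libraries and are not independent. PFKM was low in replicate 1 in normoxia, at 61.0 CPM against 82.9 to 83.7 CPM, and low in replicate 1 in hypoxia, at 50.02 CPM against 66.3 to 69.3 CPM. PFKP was low in hypoxic replicate 1, at 304 CPM against 326 to 329 CPM. PFKFB1 was high in normoxic replicate 3, at 0.330 CPM against 0.146 to 0.174 CPM. In normoxia replicate 1 also stood apart over all genes, by the chi-square per gene between the counts of 2 libraries. The value there was 112 to 196 for pairs with replicate 1 and 12.1 to 41.3 for the other pairs. In hypoxia it was 99.2 to 257 and 15.3 to 142, ranges that overlap. Hypoxic replicate 4 was also far from replicate 2 (104) and from replicate 3 (142), so replicate 1 was not alone in standing apart. The part of this in the flagged values was not tested.

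The response to hypoxia differed between the lines, by the interaction test, for PFKL (-0.60, PC3 minus HCT116 on the log2 scale), PFKFB3 (1.25) and PFKFB4 (-1.31).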

How the results depend on the processing

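Of 626 values of single members under alternatives, 601 kept their direction and side of the threshold, 9 lost a call, 7 gained one and 9 changed sign, none of the last being called. Sign changes were those of PFKFB2 in HCT116 (-0.0750 with total-count scaling, -0.0382 to 0.0483 without a library) and of PFKFB1 between the lines in normoxia (-0.00257 in normoxic libraries alone, -0.306 to 0.219 without a library). The causes were not tested. Depth limits only PFKFB1.

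In PC3 the 1620 genes called became 2601 with DESeq2, 2465 in one fit over both lines, 4074 with the replicate block and 553 to 2085 without a library, the lowest values being those without normoxic replicate 3 (553), normoxic replicate 2 (574), hypoxic replicate 2 (728) and normoxic replicate 4 (908). In HCT116 the 3658 became 1733 in one fit over both lines, 3754 with the block and 2560 to 3339 without a library. The 359 differences between the lines became 974 with DESeq2, 1307 with the block and 177 to 717 without a library. Between the lines, where the numbers do not pair the libraries, the block brought PFKFB4 in hypoxia to -0.36 (adjusted p = 0.00400), and beside this and PFKM in PC3 it changed no call of a member.

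Shares moved with the gene length used. With the longest transcript, PFKP held 53.6% and 62.0% in PC3 (normoxia, hypoxia) and 62.5% and 72.0% in HCT116, PFKFB3 39.0% and 43.3%, and 65.4% and 28.3%, and PFKFB4 28.4% and 44.9%, and 17.8% and 65.5%. Without a length PFKP held 42.7% and 50.2% in PC3 and 64.5% in hypoxic HCT116, PFKFB3 35.0% in normoxic PC3 and 62.4% in normoxic HCT116, and PFKFB4 19.7% and 13.1% in normoxia. With the canonical transcript, added after seeing the data, PFKP held 59.6% and 67.3% in HCT116, PFKFB3 39.2% and 43.6% in PC3 and 65.7% and 28.5% in HCT116, and PFKFB4 28.3% in normoxic PC3 and 17.7% and 65.3% in HCT116.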
